A study of Homo sapiens with 4 samples.

Results

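The binding of HNF1 (hepatocyte nuclear factor 1) around CFTR was described from chromatin immunoprecipitation followed by sequencing (ChIP-seq) in Caco2, a human colorectal adenocarcinoma cell line that is used as a model of the intestinal epithelium. The labels give 2 HNF1 immunoprecipitations and 2 inputs made without antibody, all from this 1 line with no treatment named, and each immunoprecipitation came with 1 peak list called against the input of its own replicate number. The antibody field names HNF1, while the extraction text of every library names FOXA2, another transcription factor; which of them was precipitated was not tested, and the name HNF1 follows the titles. The labels do not say whether the replicates were separate cultures, so differences between them may be technical. Members were chosen by position alone, as all peaks of either list whose midpoint lay between 116900 and 117550 kb of chromosome 7 (hg19 build), a window of 650 kb. It held 10 of the 10015 deposited peaks, 4 of the 5060 in replicate 1 and 6 of the 4955 in replicate 2.

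CFTR encodes the chloride and bicarbonate channel of the apical membrane of epithelial cells, which is defective in cystic fibrosis. The gene is transcribed in intestinal, pancreatic and airway epithelium, and its promoter resembles that of a housekeeping gene, with much of the control by cell type attributed to elements in introns and flanking sequence. HNF1 is a homeodomain factor that binds DNA as a dimer at an AT-rich palindrome and acts in liver, kidney, pancreas and intestine. In RefSeq order, the protein-coding neighbours are WNT2, a secreted signalling protein, and ASZ1, a germ cell protein, before CFTR, and CTTNBP2, which encodes a cortactin-binding protein, after it. No hg19 gene annotation was used here, so distances refer to approximate CFTR bounds of 117120 to 117309 kb on the plus strand, and peaks were not assigned to exons, introns or neighbouring genes.

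No peak of either list lay at the start of CFTR. The nearest peak in both replicates was 10 kb inside the gene. For this reason the 250 bases before the RefSeq start of CFTR are shown, with capitals marking the single match to the CCAAT box (CCAAT or ATTGG), a general promoter element, 61 bases before the start. The stretch lies at chr7:117479775-117480024 of the GRCh38.p14 build, plus strand, and these coordinates do not line up with the hg19 positions of the peaks.
CFTR promoter: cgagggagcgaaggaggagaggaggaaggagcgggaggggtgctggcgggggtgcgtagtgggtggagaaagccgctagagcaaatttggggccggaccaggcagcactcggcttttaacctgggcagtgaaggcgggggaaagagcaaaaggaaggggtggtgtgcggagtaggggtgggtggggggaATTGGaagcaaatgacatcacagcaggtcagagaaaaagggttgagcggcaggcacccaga

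The HNF1 half-site, searched as GTTAAT or ATTAAC, had 0 matches in this stretch. The same 250 bases held the half-site in 6.23% of the 35116 RefSeq promoters and a CCAAT box in 32.0% of them. These matches describe letters in a short window and say nothing about binding. The sequences under the peaks themselves were not read, since no hg19 genome was used here.

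More of the window's peaks lay inside CFTR than outside it. Of the 10 peaks, 7 fell within the gene body, 1 lay upstream of it and 2 downstream, with a region of both lists counted once per list. The gene body takes up 189 of the 650 kb of the window. The share of all peaks that lie within genes was not determined, since no hg19 annotation was used. After joining overlapping peaks, the window held 7 distinct regions. Of these, 3 were common to both lists, 1 was called just in replicate 1 and 3 just in replicate 2. Over all chromosomes, 2905 of 7108 regions had peaks of both lists, while 2153 had a replicate 1 peak only and 2050 a replicate 2 peak only. Whether the window differs from this was not tested. The region called just in replicate 1 lay 19 bp from a replicate 2 region, 93 kb into the gene. Their peaks count as partners when midpoints within 500 bp are allowed. The gene body held 5 of the 7 regions and 2 of the 3 that were common to both lists. The first region was 86 kb before the start of CFTR and the last 203 kb after it, which is 14 kb beyond the end of the gene. The 7 regions thus spanned 289.1 kb.

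**Figure D1:**
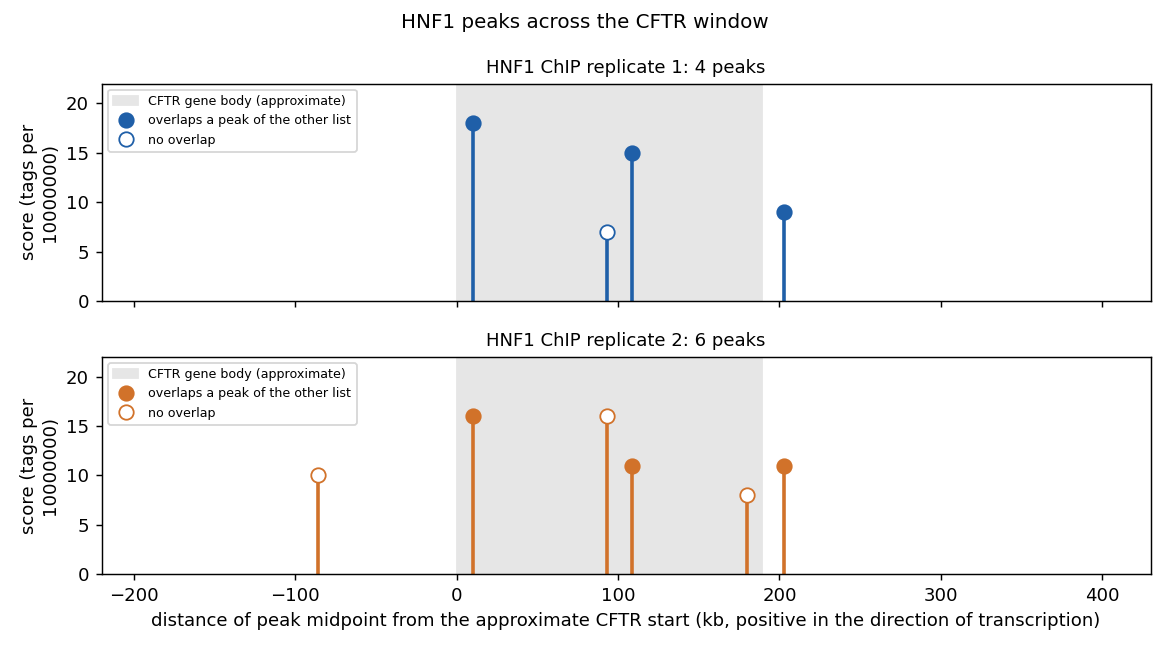
Score of each peak (vertical axis, tags per 10000000 tags of the library) against the distance of its midpoint from the approximate start of CFTR (horizontal axis, kb), with replicate 1 above and replicate 2 below; grey marks the gene body, filled circles mark peaks that overlap a peak of the other list and open circles those that do not. Positions 10, 108 and 203 kb recur in both lists, the position at 93 kb has peaks in both that do not touch, and those at -86 and 180 kb were found in replicate 2 alone.

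The scores used throughout are the authors' tag counts per peak, scaled to 10000000 tags per library and rounded. They are used here to place a peak within its own list, because the calling settings differed between the replicates, and scores of the replicates given side by side are not compared. Each score carries an exact Poisson 95% interval for counting error only, taken from the 8 to 30 tags that the rounded scores correspond to.

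The region nearest to the CFTR start had the highest score of the locus in replicate 1. It lay in the gene at 5.4% of its length, on chromosome 7 from 117130090 to 117130232 in replicate 1 and from 117130036 to 117130262 in replicate 2. Its score was 18 in replicate 1 (interval 10.9 to 27.9), with 24.0% of the list scoring higher, and 16 in replicate 2 (10.5 to 23.2), with 23.6% scoring higher. The replicate 1 peak lay wholly within the replicate 2 peak, and their midpoints were 12 bp apart. This was the member with the closest agreement in position and in rank between the lists. The tags were 26.3 times the number expected in a peak-sized stretch of the genome in replicate 1 and 14.8 times in replicate 2, by the expectation given in the file headers. Within a list this multiple is the score divided by a constant, so it adds nothing to the score. The lowest members of the window stood at 10.2 times in replicate 1 and 7.38 times in replicate 2.

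A further region in both lists lay 108 kb into the gene, at 57.4% of its length. The replicate 1 peak, from 117228341 to 117228483, scored 15 (8.9 to 23.8), and 33.3% of its list scored higher. The replicate 2 peak, from 117228369 to 117228595, scored 11 (6.6 to 17.4), and 47.0% of its list scored higher. The midpoints were 70 bp apart, a distance reached or exceeded by 14.1% of the 2907 shared pairs, whose median was 27 bp.

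Downstream of CFTR, on the side of CTTNBP2, the last region of the window was also found in both lists. Its peak scored 9 in replicate 1 (4.6 to 16.5), from 117323021 to 117323163, and 11 in replicate 2 (6.6 to 17.4), from 117323001 to 117323227. In replicate 1 it stood in the lower part of the list, with 65.6% of peaks scoring higher. The replicate 2 peak equalled the median of its list, which was 11.

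A position 93 kb into the gene, near its middle, carried a peak in each list, but the peaks did not overlap. The replicate 1 peak ran from 117212805 to 117212947 and the replicate 2 peak from 117212967 to 117213193, which left 19 bp between them and 204 bp between their midpoints. The peaks also stood at different places in their lists. The replicate 1 peak scored 7 (2.9 to 13.2), the lowest of the locus, and 94.9% of its list scored higher. The replicate 2 peak scored 16 (10.5 to 23.2), level with the region near the start, and 23.6% of its list scored higher. The rounded score of the replicate 1 peak corresponds to 8 tags, fewer than the 9 tags that its header gives as the calling threshold. Whether these are 1 bound site or 2 was not tested.

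**Figure D2:**
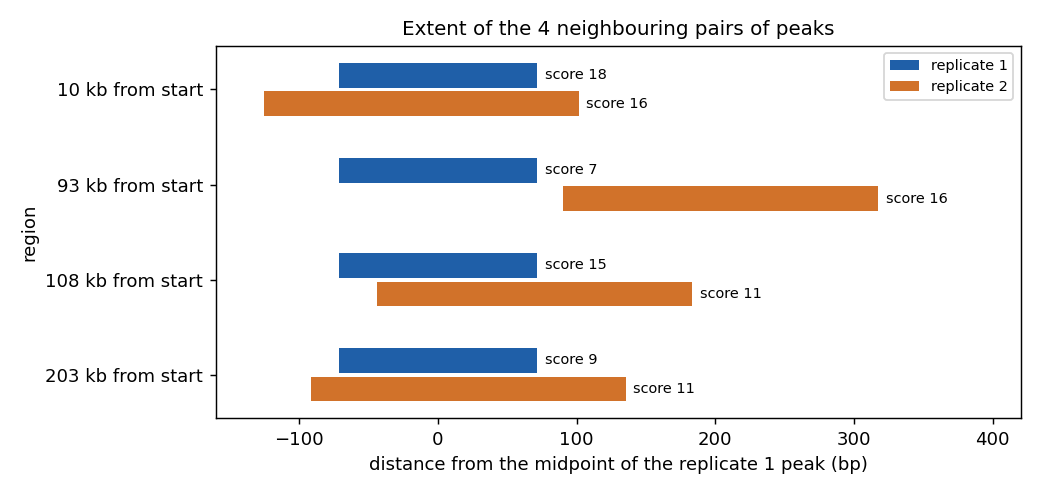
Extent of the peaks at the 4 positions with a peak in both lists, drawn in bp from the midpoint of the replicate 1 peak, with the score beside each bar. Bars overlap at 10, 108 and 203 kb from the CFTR start, and at 93 kb a gap of 19 bp separates them.

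Replicate 2 alone held 2 further peaks with no replicate 1 peak nearby. One lay 86 kb before the CFTR start, on the side of ASZ1, from 117033886 to 117034112. It scored 10 (5.8 to 16.1), and 54.5% of its list scored higher. The other lay inside the gene, 9 kb before its end and at 95.2% of its length, from 117299868 to 117300094. This peak scored 8 (4.1 to 13.4), the lowest of the replicate 2 peaks in the window, and 75.1% of the list scored higher. As a score, the calling threshold in the header of replicate 2 was 7.04, and the lower bounds of both intervals fall below it. The same holds for the replicate 2 peaks at 108 and 203 kb, which have a partner and lower bounds of 6.6. In replicate 1 the threshold was 7.54 as a score. There the lower bounds of 2.9 at 93 kb and 4.6 at 203 kb fall below it. The missing calls do not show that the sites were unoccupied in replicate 1.

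Compared with their lists, the peaks of the CFTR locus had ordinary scores. The 4 replicate 1 scores had a median of 12, equal to the median of 12 over the list, and ranged from 7 to 18. The 6 replicate 2 scores had a median of 11, also equal to the median of the list, and ranged from 8 to 16. In each replicate 2 of the window's peaks scored above the list median. The highest scores on chromosome 7 were 69 in replicate 1 and 50 in replicate 2, and those in the lists as a whole were 275 and 125.

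**Figure D3:**
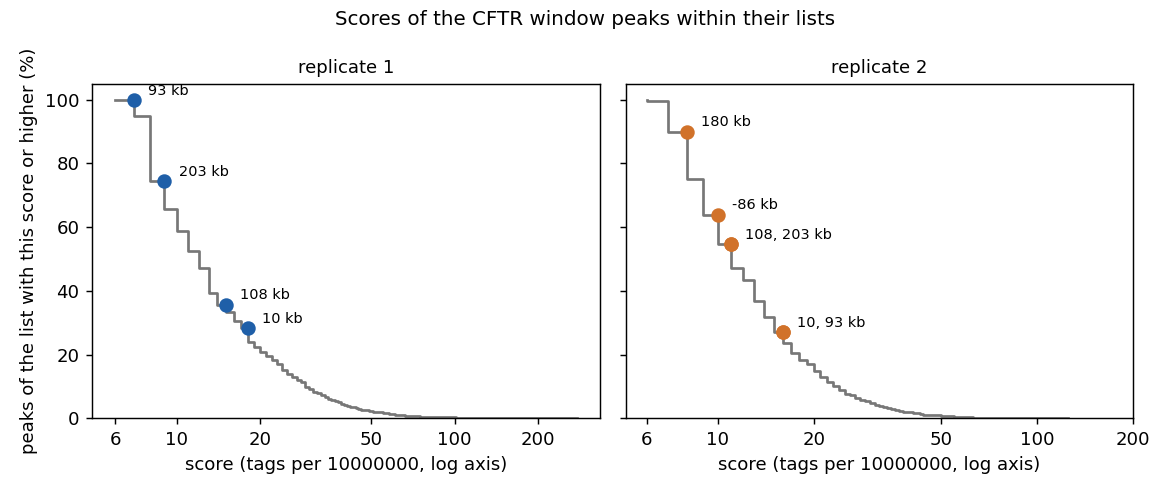
Percentage of each list with at least a given score (vertical axis) against the score in tags per 10000000, on a log axis, with the CFTR window peaks as points labelled by their distance from the CFTR start in kb. The members have scores of 7 to 18 in replicate 1 and 8 to 16 in replicate 2, and none lies in the long tail of high scores.

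The share of members with a partner rested on few peaks and could not be told from that of the lists. By overlap of at least 1 bp, 3 of 4 replicate 1 peaks had a partner (75.0%, exact Clopper-Pearson 95% interval 19.4% to 99.4%), against 57.5% of all replicate 1 peaks. In replicate 2 it was 3 of 6 peaks (50%, 11.8% to 88.2%), against 58.6% of the list. When midpoints within 500 bp counted as shared, the position at 93 kb joined the others and the counts became 4 of 4 and 4 of 6, against 58.8% and 59.4% of the lists. These intervals are too wide to tell the locus from the background.

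Within each list the members with a partner tended to be those with higher scores, with the position at 93 kb as the exception in replicate 2. Of all replicate 1 peaks with a score of 18, 80.9% overlapped a replicate 2 peak, as did 76.7% of those with 15, 40.8% of those with 9 and 22.8% of those with 7. The members with scores of 18, 15 and 9 had a partner and the one with 7 had none. In replicate 2 the share was 78.9% at a score of 16, 57.8% at 11, 52.1% at 10 and 31.1% at 8. The replicate 2 peak at 93 kb, with a score of 16, was thus among the 21.1% of such peaks without an overlapping partner.

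**Figure D4:**
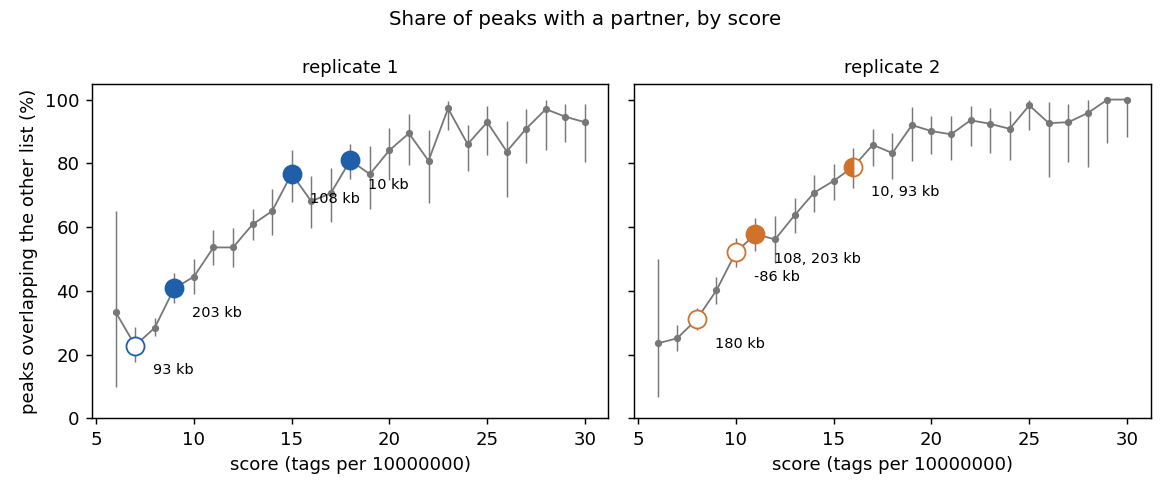
Percentage of peaks that overlap a peak of the other list (vertical axis) for each score up to 30 (horizontal axis, tags per 10000000), with exact 95% intervals as bars; filled circles mark scores of CFTR window peaks with a partner, open circles those without, and the circle filled on one side a score with 1 peak of each kind, labels giving kb from the CFTR start. The members without a partner sit at scores of 7 in replicate 1 and 8, 10 and 16 in replicate 2.

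Peaks per Mb were higher around CFTR than the list averages, with wide intervals in both replicates. The window held 6.15 peaks per Mb in replicate 1 (exact Poisson 95% interval 1.68 to 15.8) and 9.23 in replicate 2 (3.39 to 20.1). Over the spans between the first and last peak of all chromosomes the lists averaged 1.74 and 1.70 peaks per Mb, and over chromosome 7 they averaged 1.61 and 1.85. The interval of replicate 1 includes its average over all chromosomes (1.74) but lies above its average over chromosome 7 (1.61). The interval of replicate 2 lies above both of its averages. Such intervals treat peaks as falling independently of each other, which was not tested. If peaks cluster along the genome, the intervals are too narrow, so their place relative to an average is descriptive only. Within the CFTR gene body alone the density was 15.9 per Mb in replicate 1 (3.27 to 46.4, from 3 peaks) and 21.2 in replicate 2 (5.77 to 54.2, from 4 peaks). These gene body intervals lie above the averages in both replicates, under the same assumption. The lists share 2 regions of the gene body, so the replicates are not separate evidence of a high density. A gene that was picked for study is also not a random stretch of the genome, and no test was made.

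Windows as rich as that of CFTR were uncommon but not rare. Of 4462 windows of 650 kb laid end to end over all chromosomes, 8.49% held 4 or more replicate 1 peaks and 2.38% held 6 or more replicate 2 peaks. At least 7 distinct regions were found in 3.63% of them and at least 3 regions of both lists in 6.63%. The count of 7 takes the peaks at 93 kb, which do not overlap, as separate regions. The richest windows held 12 peaks of replicate 1 and 14 of replicate 2. For stretches of 189 kb, the length of the gene body, 2.17% of 15398 held 3 or more replicate 1 peaks and 0.812% held 4 or more replicate 2 peaks. That comparison was added after the values had been seen.

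**Figure D5:**
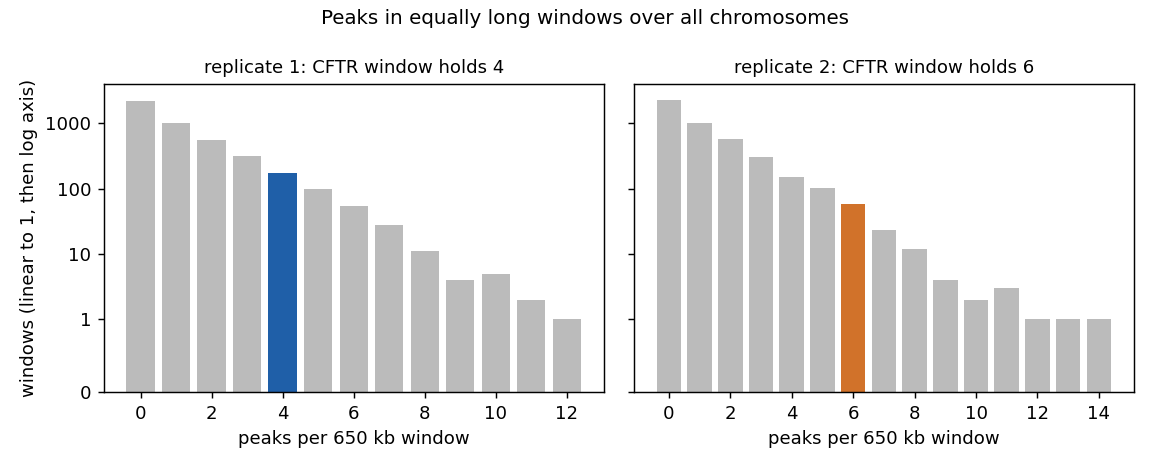
Number of 650 kb windows (vertical axis, linear up to 1 and logarithmic above) that hold a given number of peaks (horizontal axis), for replicate 1 on the left and replicate 2 on the right, with the bar of the CFTR window's own count in colour. Most windows hold 0 or 1 peak, and the CFTR window, with 4 and 6 peaks, lies in the upper tail without being at its end.

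Beyond the 7 regions, the next peaks along the chromosome lay outside the window, and the choice of the window sets a lower limit to how far away they could be. The nearest peak before the first region was 324.3 kb away, in replicate 1, and scored 10. The nearest peak after the last region was 769.3 kb away, in replicate 2, and scored 9. Of the distances between neighbouring regions over all chromosomes, 31.2% and 14.3% were at least as long as these.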

How the data were processed

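HNF1 ChIP-seq of Caco2 cells was analysed from the 2 deposited peak lists. Per the file headers, the authors ran HOMER findPeaks (factor mode) once per library, requiring a 4-fold excess of tags over the input and over the surrounding 10000 bp, at a false discovery rate of 0.001. The submitters' processing notes name Bowtie 1.0.0, HOMER 1.2 and hg19. The replicates had 11931439 and 18469659 tags, and their peaks were 143 and 227 bp wide. The headers give approximate immunoprecipitation efficiencies of 0.81% and 0.69%. The deposited score is a tag count scaled to 10000000 tags and rounded; 1 tag was worth 0.838 and 0.541 score units.

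Peaks sharing at least 1 bp were joined. Other rules of sharing, score limits, window choices and single lists were tried as alternatives. The overlap procedure was checked on simulated data. No p-value was computed, since each replicate is 1 list. All peaks in the window were named, so none was chosen by its values. The window and comparisons were chosen with earlier results of these data known. The tools were Python 3.11.15 with scipy 1.17.1 for intervals, pandas 2.3.3 and numpy 2.4.6 for joins, and matplotlib 3.10.9 for figures.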

Additional observations from a re-analysis of the deposited data

How the results depend on the processing

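The number of CFTR window peaks with an overlapping partner was 3 in each replicate and stayed at 3 when 50% of both peaks had to overlap or when all peaks were set to 200 bp. It was 4 with midpoints within 500 bp, and 2 among peaks at or above the list median score. That score limit left 2 of the 4 replicate 1 peaks and 4 of the 6 replicate 2 peaks in the window. Leaving out a replicate changed the 7 distinct regions to between 4 and 6. The density relative to the list was 3.54 in replicate 1 and 5.43 in replicate 2 for the window, and 9.14 and 12.4 for the CFTR gene body. The share of stretches with as many peaks fell to 2.17% and 0.812% at the length of the gene body. In replicate 1 a median of 49.4% of the list scored higher than the window's peaks, and 52.9% on chromosome 7 alone. No paired analysis was possible because 1 peak list per immunoprecipitation, and none per input, was analysed here. With 8 to 30 tags a peak, counting error limits every score, and the effect of depth was not tested.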

Other observations

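Pairs of peaks that lay side by side without touching, as at 93 kb into CFTR, were scarce in the lists. Of the 2153 replicate 1 peaks with no overlap, 70 (3.25%) had a replicate 2 midpoint within 500 bp, and 10 of these were as close as the 204 bp seen at CFTR or closer.

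In replicate 1 no peak followed the CFTR group for 3631.1 kb, a distance reached or exceeded by 2.36% of the 5036 distances between neighbouring peaks of that list. In replicate 2 the next peak came after 769.3 kb. Here too the choice of the window sets a lower limit to these distances.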
